A study of Mus musculus with 16 samples.

Results

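The genes described here are 10 regulators and surface receptors of blood and endothelial development: the transcription factors Runx1, Tal1, Lmo2, Gata2, Etv2 and Fli1, the receptors Flt1 and Tek, and the adhesion molecules Pecam1 and Cdh5. Members were all probe sets of the deposited value table whose platform gene symbol was 1 of these names, which gave 21 of 45037 probe sets, each with 1 symbol only. Runx1 had 6 probe sets, Flt1 4, Gata2, Fli1 and Cdh5 2 each, and the other 5 genes 1 each. Every probe set was read apart from the others of its gene.

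Blood and endothelium arise from Flk1-expressing mesoderm through a shared set of factors. Etv2, Fli1, Tal1 and Gata2 open the programme, Lmo2 bridges Tal1 and GATA factors in a complex, and Runx1 is needed for definitive blood cells to emerge from endothelium. Notch signalling acts through the intracellular domain of the receptor, which joins the DNA-binding protein RBP-J in the nucleus and is required in the embryo for arterial fate and for definitive blood formation.

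The study asked which genes activated Notch1 regulates in embryonic stem cells (ESC) and in mesodermal cells derived from them. EB5 NERT ESC carry NERT, the intracellular domain of Notch1 in a form that 4-hydroxy-tamoxifen (OHT) activates, and EB5 control ESC carry the pCAG vector without NERT, so all arrays came from EB5 ESC or their progeny. OHT was given at 1 µM for 4 h. Cycloheximide (CHX), which blocks protein synthesis, was used at 50 µg/ml for 4 h. The 16 Affymetrix arrays comprised EB5 NERT mesodermal cells after 4 d of differentiation, with 2 arrays each for CHX and OHT, CHX alone, OHT alone and neither agent. EB5 NERT ESC in mesodermal (ESCm) and in ectodermal (ESCe) differentiation medium gave 1 array each with and without OHT, as did EB5 control mesodermal cells and EB5 control ESCm. NERT marks 1 line and its absence the other, so an effect of NERT before OHT and any other difference between the lines cannot be told apart. Nothing in the labels says that the 2 arrays of a condition came from separate cultures, so the p-values cover the variation among these arrays alone, which may be technical.

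Values are model-based expression intensities on a linear scale, with array medians of 42.0 to 46.9. A probe set was tested where at least 1 condition averaged 50 or more, which held for 14 members over the 8 NERT mesoderm arrays and for 15 members over all 16 arrays. Changes are differences of log2(value + 25) with their standard errors (SE) from limma, so those of weakly measured probe sets are understated, and a call means an adjusted p under 0.05 over all tested probe sets. Folds are ratios of condition means on the linear scale, with a mean under 25, a floor set for this work, raised to 25 and the fold then given as at least that large. In these mixed cultures, fewer cells of a type and less RNA per cell cannot be told apart. For statements that arrays did not overlap or all lay above or below others, the share over all probe sets was not counted.

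Among 9 endothelial markers on the arrays, 5 (Cdh5, Tie1, Emcn, Icam2 and Vwf) stayed under 50 in every array, and Tie1, Emcn and Icam2 under 25. Of 5 primitive red cell markers on the arrays, all stayed under 50. Of 7 blood progenitor markers 1 did, the pan-leukocyte gene Ptprc, which stayed under 25. The others peaked in ESC at 52.7 (Gfi1b), 60.1 (Spi1) and 104 (Spn), and in control mesodermal cells at 116 (Myb) and 228 (Runx1 1452530_a_at). Itga2b peaked at 232 in NERT mesodermal cells. There, without CHX, Spn stood at 23.7 to 32.7 and Myb at 15.7 to 21.1. In ESC, Runx1 1452530_a_at stood at 156 to 192 and Itga2b at 147 to 191. Of 6 early mesoderm genes, Mixl1, Eomes and Aplnr were higher in every mesoderm array without CHX than in every ESC array. Kdr (Flk1), Pdgfra and Mesp1 overlapped between these arrays. Of 5 pluripotency genes, Zfp42, Esrrb and Klf4 were lower in every mesoderm array without CHX than in every ESC array, while Pou5f1 and Nanog overlapped. Pou5f1, a pluripotency factor, was still at 1814 to 2576 in NERT and 3303 to 3449 in control mesodermal cells without CHX, against 2490.5 to 2954 in ESC.

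Promoter windows of 250 bases before and 50 after annotated starts were taken from RefSeq (GRCm38.p6) for 6 of the 10 genes, and 4 of the 9 windows are shown because they belong to the genes whose probe sets moved with OHT or hold the core site of RBP-J. Capitals mark each match, on either strand, to the RBP-J core TGGGAA, the GATA words AGATAA with its variant AGATAG and TGATAA with its variant TGATAG, the ETS core CCGGAA, the RUNX word TGTGGT, and the E box words CAGCTG and also CATCTG, and no 2 matches overlapped in these windows.
Flt1, chr5:147725962-147726261, minus strand: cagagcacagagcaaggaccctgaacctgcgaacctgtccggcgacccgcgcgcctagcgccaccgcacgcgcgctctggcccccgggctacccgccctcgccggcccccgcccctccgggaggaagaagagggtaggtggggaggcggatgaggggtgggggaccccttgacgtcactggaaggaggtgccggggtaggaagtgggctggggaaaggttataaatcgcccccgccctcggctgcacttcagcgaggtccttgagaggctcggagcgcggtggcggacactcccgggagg
Runx1, upstream start, chr16:92826025-92826324, minus strand: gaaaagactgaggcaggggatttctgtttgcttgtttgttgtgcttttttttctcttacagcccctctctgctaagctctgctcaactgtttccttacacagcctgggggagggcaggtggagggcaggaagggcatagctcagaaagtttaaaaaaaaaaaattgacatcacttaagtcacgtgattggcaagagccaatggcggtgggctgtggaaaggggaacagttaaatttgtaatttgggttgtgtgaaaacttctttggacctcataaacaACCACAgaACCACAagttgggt
Runx1, downstream start, chr16:92697280-92697579, minus strand: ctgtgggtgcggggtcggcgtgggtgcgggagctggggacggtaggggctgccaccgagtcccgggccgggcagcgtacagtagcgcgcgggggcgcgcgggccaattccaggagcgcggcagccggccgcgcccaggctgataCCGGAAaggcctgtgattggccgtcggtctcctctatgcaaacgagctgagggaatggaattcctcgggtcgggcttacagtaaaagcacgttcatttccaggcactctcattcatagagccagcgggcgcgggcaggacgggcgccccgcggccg
Tal1, upstream start, chr4:115056176-115056475, plus strand: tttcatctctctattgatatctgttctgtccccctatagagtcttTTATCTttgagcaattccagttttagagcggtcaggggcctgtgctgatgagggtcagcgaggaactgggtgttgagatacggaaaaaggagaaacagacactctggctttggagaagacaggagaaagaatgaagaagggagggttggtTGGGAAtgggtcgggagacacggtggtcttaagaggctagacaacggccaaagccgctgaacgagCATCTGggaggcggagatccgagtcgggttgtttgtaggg
The Flt1 window lies within the gene as annotated, at chr5:147561604-147726438, and held none of these words. Runx1 lies at chr16:92601466-92826074, and its 2 starts are 128745 bases apart. The window at its upstream start held 2 RUNX words in reverse orientation, 28 and 36 bases after the start, and the one at its downstream start held an ETS core 106 bases before the start. Of the 9 windows the upstream one of Tal1 alone held the RBP-J core, 55 bases before the start, beside a GATA word and an E box. The RBP-J core was in 25.6% of all 32851 windows, the GATA words in 29.8%, the ETS core in 14.9%, the RUNX word in 16.8% and the E box words in 30.6%, against 1, 2, 1, 1 and 2 of the 9 member windows in the same order. These matches describe the letters of the windows only. The study screened longer regions with a weight matrix and reported potential RBP-J binding sites for Runx1. Absence of the core word from these short windows does not bear on those sites.

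Flt1, a receptor for VEGF that also exists as a soluble decoy, was higher with OHT in each EB5 NERT setting at all 4 probe sets on the condition means, and the change was called in mesodermal cells under CHX at 1 of them. In EB5 NERT mesodermal cells probe set 1451756_at stood at 625 and 593 with OHT, against 290.0 and 187 without, a 2.55-fold difference of the means (log2 change 1.29 ± 0.36, adjusted p = 0.189). Probe set 1440926_at stood at 267 and 299 with OHT, against 144 and 121 without (2.14-fold, log2 change 0.97 ± 0.22, adjusted p = 0.0886). Probe set 1454037_a_at had 127 and 146 with OHT and 76.7 and 91.0 without (1.63-fold, log2 change 0.57 ± 0.17, adjusted p = 0.227). At these 3 probe sets both OHT arrays lay above both arrays without OHT. The share of all tested probe sets that separate 2 arrays from 2 was not counted, so this is a description only. Probe set 1419300_at had 258 and 368 with OHT and 285 and 208 without, and its conditions overlapped (log2 change 0.31 ± 0.22, adjusted p = 0.928). None of the 14 members tested was called in mesodermal cells without CHX, where limma called 0.893% of all tested probe sets. An unadjusted p under 0.05 was found at 5 of the 14, and at 1924 of all 23971 tested probe sets. The spread is pooled over the 8 arrays, and without replicate 1 or without replicate 2 of CHX and OHT 2 members were called, 1440926_at (adjusted p = 0.0271 and 0.0271) and 1451756_at (adjusted p = 0.0278 and 0.0279). Over all 15 alternatives the adjusted p ran from 0.0271 to 0.479 for 1440926_at and from 0.0278 to 0.796 for 1451756_at.

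Under CHX the same receptor was higher with OHT again. Flt1 1440926_at stood at 301 and 488 with CHX and OHT, against 124 and 107 with CHX alone, 3.42-fold higher (log2 change 1.55 ± 0.22, adjusted p = 0.00812), and was called. Flt1 1451756_at had 337 and 887 with CHX and OHT and 210.3 and 151 with CHX alone, both OHT arrays above both others but far from each other (3.39-fold, log2 change 1.496 ± 0.36, adjusted p = 0.177). The log2 change of 1451756_at was 2.16 without replicate 1 of CHX and OHT (adjusted p = 0.00818) and 0.83 without replicate 2 (adjusted p = 0.132), and over its 15 alternatives the adjusted p ran from 0.00818 to 0.608. Flt1 1419300_at had 456 and 439 with CHX and OHT and 278 and 226 with CHX alone (log2 change 0.78 ± 0.22, adjusted p = 0.297), and 1454037_a_at had 76.4 and 95.2 and 63.1 and 61.4 in the same order (log2 change 0.34 ± 0.17, adjusted p = 0.895). No overlap between the conditions was seen at any of the 4 probe sets under CHX, which read 1 gene on the same arrays. The share of all probe sets without such overlap was not counted. The call at 1440926_at was lost without replicate 1 of CHX alone (adjusted p = 0.0714) and without its replicate 2 (adjusted p = 0.102), within a range of 0.00445 to 0.102 over 15 alternatives.

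In EB5 NERT ESC each Flt1 probe set was higher with OHT in both media. Flt1 1451756_at stood at 250.5 with OHT and 106 without in ESCm, and at 256 with OHT and 124 without in ESCe, 2.35-fold and 2.07-fold higher. Flt1 1419300_at was 1.72-fold higher in ESCm (139.6 with OHT and 81.2 without) and 1.95-fold higher in ESCe (162 with OHT and 83.1 without). Flt1 1440926_at was 1.81-fold higher in ESCm (123 with OHT and 67.6 without) and 1.59-fold higher in ESCe (136 with OHT and 85.2 without). As the mean over both media, the log2 changes were 0.99 ± 0.33 at 1451756_at, 0.71 ± 0.18 at 1419300_at and 0.61 ± 0.19 at 1440926_at (adjusted p = 0.456, 0.187 and 0.355), and 0.19 ± 0.15 at 1454037_a_at (adjusted p = 0.996). None of 15 members was called in ESC, where limma called 0.538% of probe sets. An unadjusted p under 0.05 was found at 3 of the 15, all Flt1, and at 1602 of all 25847 tested probe sets. Without replicate 1 or replicate 2 of CHX and OHT, arrays that bear on the pooled spread alone, 1451756_at was called in ESC (adjusted p = 0.0460 and 0.0462), within a range of 0.0460 to 0.714 over 13 alternatives.

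EB5 control cells were set against these responses probe set by probe set. Flt1 1451756_at stood at 212 with OHT and 179.9 without in control mesodermal cells, and at 35.3 and 43.8 in control ESCm in the same order, with a log2 change of 0.01 ± 0.33 over both populations. The log2 changes of the other probe sets in control cells were -0.11 ± 0.19 at 1440926_at, -0.01 ± 0.18 at 1419300_at and 0.18 ± 0.15 at 1454037_a_at. At 1454037_a_at this was as large as the change in NERT ESC (0.19 ± 0.15), with 53.6 with OHT and 37.8 without in control ESCm (1.42-fold), beside 1.14-fold in NERT ESCm and 1.25-fold in NERT ESCe. No member was called in control cells, where limma called 0.00% of probe sets. There no member had an unadjusted p under 0.05, beside 308 of all 25847 tested probe sets. The response of NERT mesodermal cells exceeded that of control cells by 1.08 ± 0.27 at 1440926_at and by 1.28 ± 0.47 at 1451756_at on the log2 scale, neither called (adjusted p = 0.157 and 0.539). No member was called for that difference, with 0.437% of all probe sets called by limma. An unadjusted p under 0.05 was found at 4 members, and at 1665 of all 25847 tested probe sets. Without replicate 1 or replicate 2 of CHX and OHT the difference at 1440926_at was called (adjusted p = 0.0260 and 0.0261), within a range of 0.0260 to 0.405 over 13 alternatives. The OHT responses of mesodermal cells and of ESC differed at no member by limma, with 0.0310% of all probe sets called. There 1 member had an unadjusted p under 0.05, beside 2114 of all 25847 tested probe sets. Over all 16 arrays the 4 Flt1 probe sets correlated with each other at r = 0.69 to 0.97 on log2(value + 25), a description over arrays that share 1 normalization. The 9 endothelial markers include Tek, Pecam1 and Cdh5 but not Flt1. Their summed level was 269 to 301 with OHT and 231 to 245 without in NERT mesodermal cells. Esam was higher in both OHT arrays, at 108 and 110 with OHT and 68.9 and 54.9 without. So was Cdh5, near the floor of 25, at 30.9 and 27.1 with OHT and 26.1 and 23.0 without. Tie1, under 25 throughout, was lower, and the rest of the list overlapped. With CHX the sum was 307 to 321 with OHT and 289 to 304 without. The sums of 5 pluripotency and 6 mural markers were higher with OHT too in NERT mesodermal cells, at 5775 to 5912 with OHT and 5193 to 5328 without and at 4820.1 to 5215 with OHT and 4429 to 4764 without, with Nanog in the first list and Tagln and Myh11 in the second higher in both OHT arrays. With CHX both of these sums overlapped between arrays with and without OHT. The part of these sums in the Flt1 values was not tested.

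**Figure D1:**
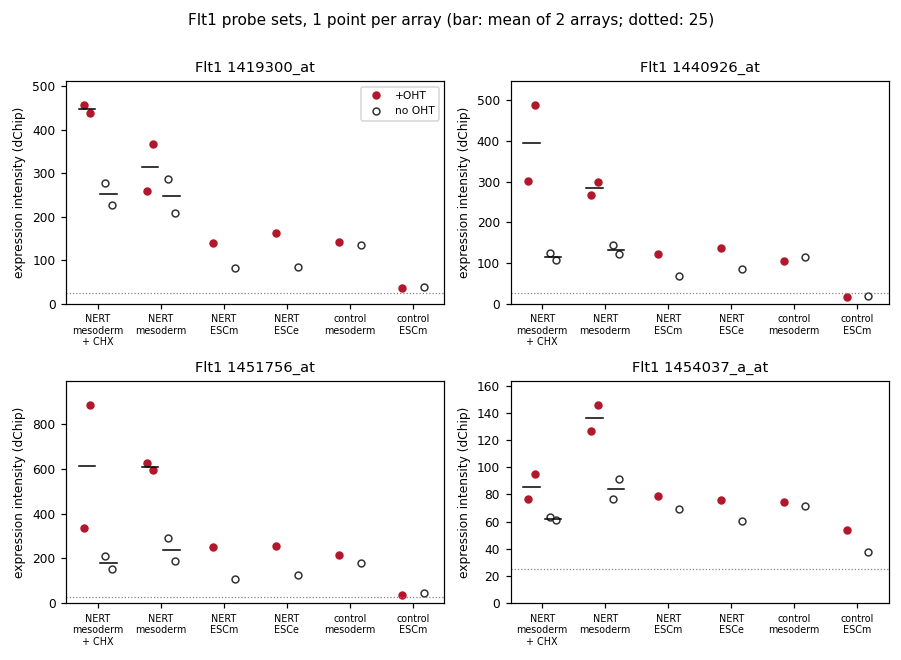
Expression intensity (linear scale) of the 4 Flt1 probe sets, 1 point per array, filled with OHT and open without, with a bar at the mean where a condition has 2 arrays and a dotted line at 25. In each EB5 NERT setting the OHT mean or array lay above that without OHT at every probe set, while the EB5 control pairs had no common direction, with 212 with OHT and 179.9 without in mesodermal cells at 1451756_at, and with 53.6 and 37.8 in ESCm at 1454037_a_at in the same order.

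Runx1 gave 2 patterns that depended on the probe set. At 4 of its 6 probe sets the NERT mesoderm condition means were low without CHX, higher with CHX and highest with CHX and OHT. At 1422864_at, 1422865_at and 1427650_a_at arrays with CHX alone and with OHT alone overlapped, with 55.4 and 65.0 at 1422864_at. At the other two, 1452530_a_at and 1452531_at, the conditions with and without OHT overlapped. Under CHX, probe set 1440878_at stood at 346 and 237 with OHT, against 86.7 and 66.1 without, 3.81-fold higher (log2 change 1.63 ± 0.25, adjusted p = 0.0112). With Flt1 1440926_at it made 2 of 14 members called under CHX, both higher, where limma called 0.617% of all probe sets. Probe set 1422864_at had 202 and 238 with CHX and OHT and 144 and 55.4 with CHX alone (2.20-fold, log2 change 1.07 ± 0.29, adjusted p = 0.274), and 1422865_at had 72.3 and 79.7 and 43.8 and 38.8 in the same order (log2 change 0.61 ± 0.21, adjusted p = 0.535). At all 3 both OHT arrays lay above both others, a separation whose share over all probe sets was not counted. The call at 1440878_at was lost without replicate 1 or 2 of CHX alone (adjusted p = 0.0707 and 0.133) and when replicate 1 of CHX and OHT was left out (adjusted p = 0.111), within a range of 0.00350 to 0.133 over 15 alternatives. The log2 change of 1422864_at was 1.603 without replicate 1 of CHX alone, its highest array without OHT, and was then called (adjusted p = 0.0254), and 0.53 without replicate 2 (adjusted p = 0.793, within 0.0254 to 0.793).

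Without CHX, the OHT arrays of NERT mesodermal cells had 50.7 and 65.0 at 1422864_at, against 23.1 and 32.6 without OHT (2.08-fold, log2 change 0.65 ± 0.29, adjusted p = 0.619). The OHT arrays had 23.6 and 53.8 at 1440878_at, against 21.1 and 24.9, and 24.7 and 46.2 at 1422865_at, against 12.7 and 25.9, with log2 changes of 0.37 ± 0.25 and 0.44 ± 0.21 that were not called (adjusted p = 0.912 and 0.650). At 1422864_at the conditions did not overlap, a separation whose share over all probe sets was not counted. At the other 2 they overlapped. The OHT response with CHX minus that without was 1.26 ± 0.35 at 1440878_at (unadjusted p = 0.00435, adjusted p = 0.677) and 0.42 ± 0.41 at 1422864_at (adjusted p = 0.998). No member was called for that difference by limma, and 0.0250% of all probe sets were called. An unadjusted p under 0.05 was found at 1 of 14 members, and at 1080 of all 23971 tested probe sets.

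At 1452530_a_at the CHX and OHT arrays stood at 195 and 219, against 159 and 216 with CHX alone, and the OHT arrays at 220.3 and 204, against 189.5 and 227 with neither agent (log2 changes 0.14 ± 0.19 and 0.03 ± 0.19). At 1452531_at the CHX and OHT arrays stood at 86.2 and 94.9, against 111 and 87.5, and the OHT arrays at 194 and 151, against 187 and 150.2 (log2 changes -0.10 ± 0.19 and 0.03 ± 0.19). Neither probe set was called in an OHT comparison. Over all 16 arrays 1440878_at, 1422864_at, 1422865_at and 1427650_a_at correlated with each other at r = 0.83 to 0.92, 1452530_a_at correlated with them at -0.02 to 0.25, and 1452531_at at -0.73 to -0.58. These r are descriptions over arrays that share 1 normalization, and the deposited table does not say which Runx1 transcripts each probe set reads. Probe set 1427650_a_at was not tested, with 4.67 to 37.8 over the 16 arrays, and averaged 32.5 ± 7.55 with CHX and OHT and 22.0 ± 2.49 with CHX alone (SD, n = 2 arrays each).

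In EB5 NERT ESC, Runx1 1440878_at had 23.7 with OHT and 16.9 without in ESCm, and 39.9 with OHT and 26.7 without in ESCe (log2 change 0.27 ± 0.23 over both media). Runx1 1422864_at had 69.6 with OHT and 63.4 without in ESCm, and 57.3 with OHT and 50.0 without in ESCe (log2 change 0.12 ± 0.26). Neither was called, and in control mesodermal cells both probe sets were under 25, with 13.8 with OHT and 17.2 without at 1422864_at.

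**Figure D2:**
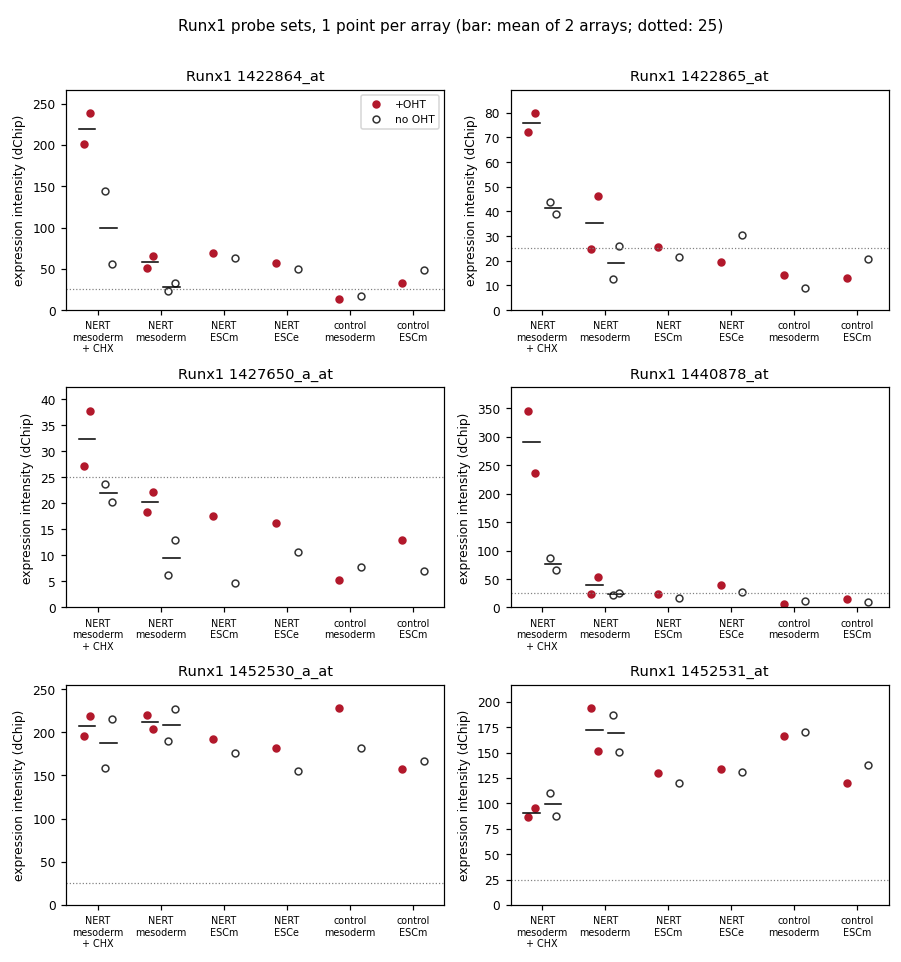
Expression intensity (linear scale) of the 6 Runx1 probe sets, 1 point per array, filled with OHT and open without, with a bar at the mean where a condition has 2 arrays and a dotted line at 25. With CHX and OHT, 1440878_at reached 346 and 237 and 1422864_at 202 and 238, while 1452531_at was lower in all 4 CHX arrays (86.2 to 111) than in the 4 NERT mesoderm arrays without CHX (150.2 to 194).

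CHX itself changed 7 of 14 members in NERT mesodermal cells without OHT, with 5 higher and 2 lower. Limma called 32.8% of all probe sets there, 5059 higher and 2812 lower, or 4304 and 4251 after quantile normalization. Gata2, a zinc finger factor of blood progenitors, stood at 370.1 and 406 with CHX, against 61.5 and 127 without, at 1450333_a_at, 4.12-fold higher (log2 change 1.85 ± 0.31, adjusted p = 0.00160). With OHT present it stood at 447 and 362 with CHX, against 48.0 and 112 without, 5.07-fold higher (log2 change 2.10 ± 0.31, adjusted p = 5.19e-04). Each CHX array lay above each of the 12 other arrays of the series, whose highest value was 127. OHT left Gata2 within its spread, with log2 changes of 0.05 ± 0.31 under CHX and -0.20 ± 0.31 without CHX.

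Runx1 was also higher with CHX at the 3 tested probe sets of its first pattern. Without OHT, 1422864_at had 144 and 55.4 with CHX and 23.1 and 32.6 without (log2 change 1.15 ± 0.29, adjusted p = 0.0124), 1440878_at had 86.7 and 66.1 and 21.1 and 24.9 in the same order (log2 change 1.07 ± 0.25, adjusted p = 0.00778), and 1422865_at changed by 0.60 ± 0.21 (adjusted p = 0.0465). With OHT the CHX arrays exceeded those without CHX 7.53-fold at 1440878_at (log2 change 2.33 ± 0.25, adjusted p = 7.17e-05), 3.80-fold at 1422864_at (log2 change 1.57 ± 0.29, adjusted p = 0.00183) and 2.14-fold at 1422865_at (log2 change 0.76 ± 0.21, adjusted p = 0.0133). Runx1 1452531_at fell with CHX, to 111 and 87.5 with CHX alone, against 187 and 150.2 with neither agent (log2 change -0.64 ± 0.19, adjusted p = 0.0242), and with OHT its log2 change was -0.77 ± 0.19 (adjusted p = 0.00848). Without OHT the calls at 1422864_at, 1440878_at, 1422865_at and 1452531_at were lost without replicate 1 of neither agent (adjusted p = 0.0783, 0.0505, 0.307 and 0.186) and likewise without replicate 1 of CHX alone (adjusted p = 0.103, 0.0755, 0.205 and 0.0543). Those at 1422865_at and 1452531_at were lost without replicate 2 of CHX alone too (adjusted p = 0.110 and 0.151), and 1422865_at kept its call in 6 of 15 alternatives. The log2 change of 1422864_at without OHT was 0.61 without replicate 1 of CHX alone.

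Lmo2, the LIM protein that bridges Tal1 and GATA factors, fell with CHX. It stood at 49.3 and 31.4 with CHX alone, against 219.9 and 222 with neither agent, 5.47-fold lower (log2 change -1.92 ± 0.22, adjusted p = 1.67e-04). In the presence of OHT it stood at 27.8 and 49.7 with CHX and 109 and 149.8 without (log2 change -1.28 ± 0.22, adjusted p = 0.00116). Both differences were called under all 15 alternatives, with log2 changes of -2.34 to -1.20 without OHT, and so were those of Gata2. The summed level of 6 early mesoderm markers moved the same way, at 865 to 1165 with CHX alone and 3195 to 3584 with neither agent. Mixl1, Eomes, Aplnr and Mesp1 were lower in every CHX array, while Pdgfra overlapped. Kdr went the other way, with 462 and 322 with CHX alone and 229 and 277 with neither agent. With OHT, Kdr had 236 and 274 with CHX and 230 and 173 without. The part of these markers in the Lmo2 values was not tested. OHT alone gave 109 and 149.8 at Lmo2, below both arrays without it (1.71-fold lower, log2 change -0.69 ± 0.22, adjusted p = 0.291), a difference that was not called. The share of all probe sets with such a separation was not counted.

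The receptor Tek, which binds angiopoietins, had 77.6 and 65.8 with CHX alone and 47.5 and 42.5 with neither agent (1.59-fold, log2 change 0.46 ± 0.15, adjusted p = 0.0377), called without OHT, and a log2 change of 0.36 ± 0.15 with OHT that was not called (adjusted p = 0.0826). The call was lost after quantile normalization (adjusted p = 0.0564), without the filter on low values (adjusted p = 0.0689) and without any 1 of the 4 arrays compared (adjusted p = 0.0688 to 0.225). With OHT, 7 of 14 members were called for CHX, 4 higher and 3 lower, where limma called 40.5% of all probe sets, 6342 higher and 3360 lower, or 5176 and 5196 after quantile normalization. The lower ones were Lmo2, Runx1 1452531_at and Flt1 1454037_a_at, which had 76.4 and 95.2 with CHX and 127 and 146 without (log2 change -0.55 ± 0.17, adjusted p = 0.0248). The call at Flt1 1454037_a_at was lost without replicate 1 of CHX and OHT (adjusted p = 0.125) and without replicate 2 of OHT alone (adjusted p = 0.103), and that at Runx1 1452531_at without replicate 1 of OHT alone (adjusted p = 0.0566). Runx1 1422865_at was not called without replicate 1 of OHT alone or replicate 2 of CHX and OHT (adjusted p = 0.104 and 0.0549). The other 3 Flt1 probe sets were not called for CHX. With OHT, 1451756_at had a log2 change with CHX of -0.14, a value that was 0.53 without replicate 1 of CHX and OHT and -0.81 without its replicate 2, the second of these called (adjusted p = 0.0378). Flt1 1440926_at was called as higher with CHX without replicate 1 of CHX and OHT (adjusted p = 0.0203), and 1419300_at without replicate 2 of OHT alone (adjusted p = 0.0453).

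Before OHT, Lmo2 also separated the 2 lines. It stood at 219.9 and 222 in NERT mesodermal cells without OHT, against 23.7 in control mesodermal cells, at least 8.84-fold higher (log2 difference 2.34 ± 0.26, adjusted p = 0.00250). In the 6 ESC arrays it lay between 16.9 and 35.1. Of 15 members, 1, Lmo2, was called between the lines, where limma called 1.28% of all probe sets, and was called under all 13 alternatives. Mesodermal cells of the NERT line exceeded NERT ESCm by 2.55 ± 0.26 on the log2 scale (adjusted p = 1.08e-04), and control mesodermal cells differed from control ESCm by -0.16 ± 0.30 (adjusted p = 0.875). The comparison of these 2 changes was chosen after the values were seen. No member was called for it, and limma called 0.0580% of all probe sets. An unadjusted p under 0.05 was found at 2 of 15 members, and at 1763 of all 25847 tested probe sets. For Lmo2 the difference between the changes was 2.71 ± 0.40 (unadjusted p = 3.83e-05, adjusted p = 0.0618). Its adjusted p was 0.0420 after quantile normalization and 0.0457 with a pseudocount of 100, and ran to 0.164 over 13 alternatives. Markers of early mesoderm and of pluripotent cells differed between the lines as well: summed over 6 and 5 genes, they reached 3195 to 3584 and 5193 to 5912 in NERT mesodermal cells without CHX, against 1201 to 1228 and 9378 to 9536 in control mesodermal cells. Kdr, Mixl1, Aplnr and Mesp1 were higher, and Pou5f1, Zfp42, Esrrb and Klf4 lower, in each NERT array than in both control arrays, and the part of this in the Lmo2 values was not tested.

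Against NERT ESCm, NERT mesodermal cells without OHT had 3 of 15 members called, Lmo2 and Flt1 1419300_at higher and Pecam1 lower, where limma called 22.1% of all probe sets, 3981 higher and 1743 lower, or 3356 and 2950 after quantile normalization. Flt1 1419300_at had 285 and 208 in NERT mesodermal cells and 81.2 in NERT ESCm (log2 difference 1.34 ± 0.26, adjusted p = 0.00458). In the control line it had 135 in mesodermal cells and 38.8 in ESCm (log2 difference 1.32 ± 0.30, adjusted p = 0.0356), and Flt1 1440926_at had 114 and 17.9 in the same order (log2 difference 1.69 ± 0.31, adjusted p = 0.0123). These were the 2 of 15 members called in the control line, both higher, where limma called 4.24% of all probe sets, and with 1 array a side their spread was taken from the replicated conditions. Neither was called with a pseudocount of 100 (adjusted p = 0.124 and 0.0825), nor 1419300_at without the filter on low values (adjusted p = 0.0707). In NERT cells Flt1 1440926_at and 1451756_at changed by 0.76 ± 0.27 and 0.98 ± 0.44 (adjusted p = 0.0642 and 0.147), and both were called without replicate 1 or replicate 2 of CHX and OHT (adjusted p = 0.0206 to 0.0266). Uninduced NERT ESCm stood above uninduced control ESCm at all 4 Flt1 probe sets, with 106 and 43.8 at 1451756_at and 67.6 and 17.9 at 1440926_at, which was not tested.

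Pecam1, an adhesion molecule of endothelial cells that ESC also carry, was higher in ESC than in mesodermal cells. Without CHX the arrays of the populations did not overlap, a separation whose share over all probe sets was not counted. Pecam1 stood at 10.8 to 47.0 in these 6 mesoderm arrays (median 26.7) and at 95.9 to 113 in the 6 ESC arrays (median 109.9). In the NERT line it fell to 15.7 and 22.9 in mesodermal cells without OHT, against 109 in ESCm (log2 difference -1.60 ± 0.29, adjusted p = 0.00299), and in the control line it had 44.2 in mesodermal cells and 113 in ESCm (log2 difference -0.999 ± 0.33, adjusted p = 0.145). NERT and control mesodermal cells differed by -0.65 ± 0.29 on the log2 scale (adjusted p = 0.401). The pluripotency markers Zfp42, Esrrb and Klf4 were likewise lower in every mesoderm array than in every ESC array, and their part in the Pecam1 values was not tested. OHT left Pecam1 within its spread, with log2 changes of -0.14 ± 0.21 in NERT ESC and 0.02 ± 0.21 in control cells.

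Tek showed the same order at lower contrast, with 42.5 to 47.9 in mesodermal cells without CHX and 61.2 to 79.2 in ESC, and log2 differences between mesodermal cells and ESCm of -0.30 ± 0.19 for the NERT line and -0.57 ± 0.21 for control cells that were not called (adjusted p = 0.286 and 0.198). Etv2, the ETS factor at the head of the endothelial and blood programme, lay between 66.5 and 107 on all 16 arrays and was called in none of the 13 comparisons. Tal1, a basic helix-loop-helix factor required for all blood, lay between 50.2 and 77.9 and was called in none either. In NERT mesodermal cells, Etv2 had 69.5 and 79.5 with OHT and 66.5 and 104 without (log2 change -0.13 ± 0.20), and Tal1 had 77.9 and 52.0 with OHT and 62.7 and 52.6 without (log2 change 0.11 ± 0.18). Arrays with and without OHT overlapped at both genes.

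**Figure D3:**
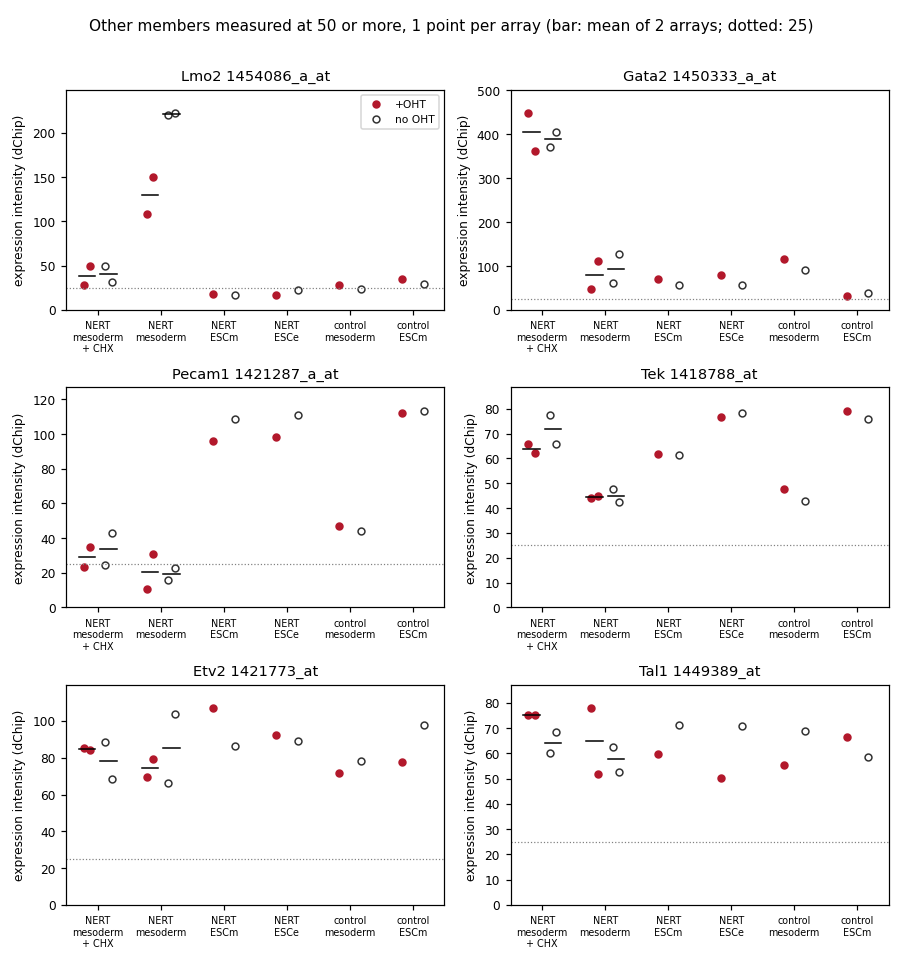
Expression intensity (linear scale) of the other 6 members that reached a condition mean of 50, 1 point per array, filled with OHT and open without, with a bar at the mean where a condition has 2 arrays and a dotted line at 25. Lmo2 was at 219.9 and 222 in uninduced NERT mesodermal cells against 23.7 in the control line, Gata2 stood at 362 to 447 in the 4 CHX arrays, and Pecam1 was highest in ESC.

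The remaining 6 probe sets never reached a condition mean of 50 and so were tested only where the filter on low values was dropped. They comprised Runx1 1427650_a_at, Gata2 1428816_a_at, both probe sets of Fli1 and both of Cdh5. Cdh5, or VE-cadherin, the junction protein that defines endothelium, lay between 14.7 and 44.1 at 1422047_at and between 14.2 and 29.9 at 1433956_at. Fli1, an ETS factor of endothelium and megakaryocytes, lay between 1.17 and 10.9 at 1422024_at, and between 2.03 and 23.3 at 1433512_at, all under 25. Gata2 1428816_a_at lay between 1 and 22.9, with 21.1 and 22.2 with CHX alone and 10.6 and 22.9 with neither agent. With OHT it had 14.1 and 20.0 with CHX and 3.22 and 12.2 without, both CHX arrays above both others. Without the filter, limma called 1 of the 6 in 1 comparison, Fli1 1433512_at for CHX without OHT, with 23.3 and 21.5 with CHX alone and 6.73 and 9.01 with neither agent (log2 change 0.53 ± 0.12, adjusted p = 0.0134). Gata2 1428816_a_at was not called there without OHT (log2 change 0.18 ± 0.18, adjusted p = 0.576) or with OHT (log2 change 0.37 ± 0.18, adjusted p = 0.180). These values lie under the floor of 25, so neither a fold nor its absence can be read from them.

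By size alone, a 2-fold or larger ratio of condition means that differ by more than 50, 2 of 21 members were higher with OHT in NERT mesodermal cells (Flt1 1440926_at and 1451756_at), against 0.746% of all probe sets in either direction. With CHX, 4 met them (those and Runx1 1440878_at and 1422864_at), against 0.524%. In ESCm and in ESCe 1 each did, Flt1 1451756_at in both, against 0.402% and 0.362%. None did in control mesodermal cells (0.0244% of all probe sets) or control ESCm (0.0488%), and none met them in the lower direction. These ratios carry no floor, and with means under 25 raised to 25 the member counts were the same. The median log2 change of the tested members was 0.21 in NERT mesodermal cells, against -0.04 over all tested probe sets, and 0.25 with CHX, against 0.00, with 9 of the 14 members from Flt1 and Runx1.

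**Figure D4:**
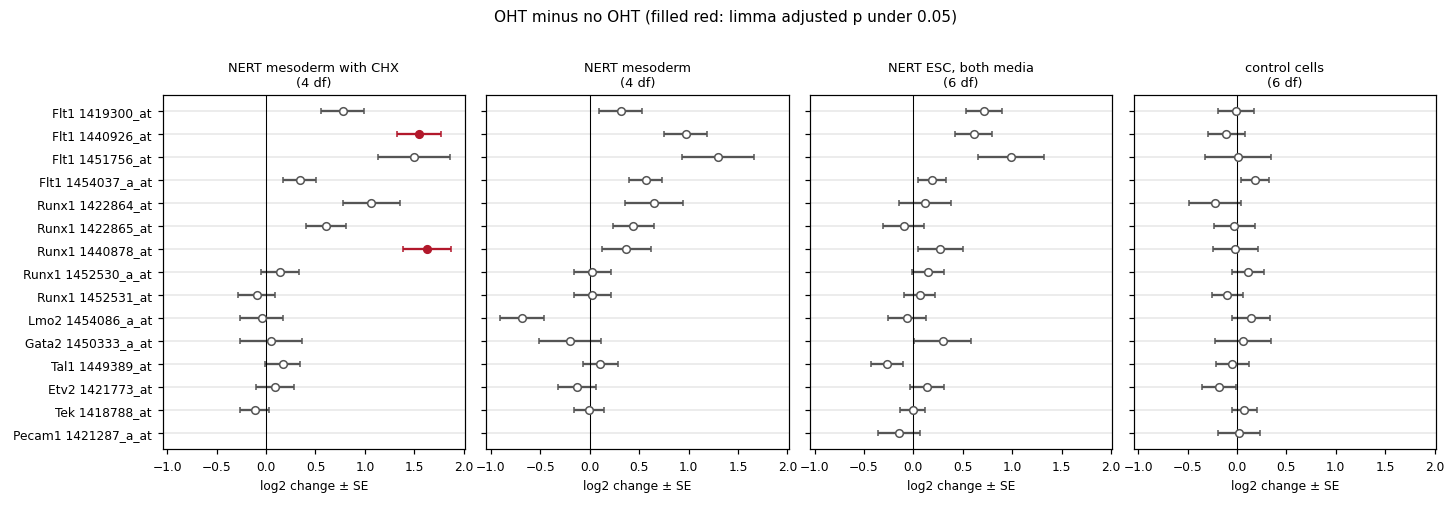
Log2 change ± SE with OHT minus without for each tested member probe set in NERT mesodermal cells with CHX, NERT mesodermal cells, NERT ESC and control cells, with filled red points where the limma adjusted p was under 0.05. Flt1 lies to the right of 0 in the 3 NERT panels, between -0.11 and 0.18 in control cells, and at 1454037_a_at as far right in control cells as in NERT ESC, and the 2 called points are Flt1 1440926_at and Runx1 1440878_at with CHX.

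**Figure D5:**
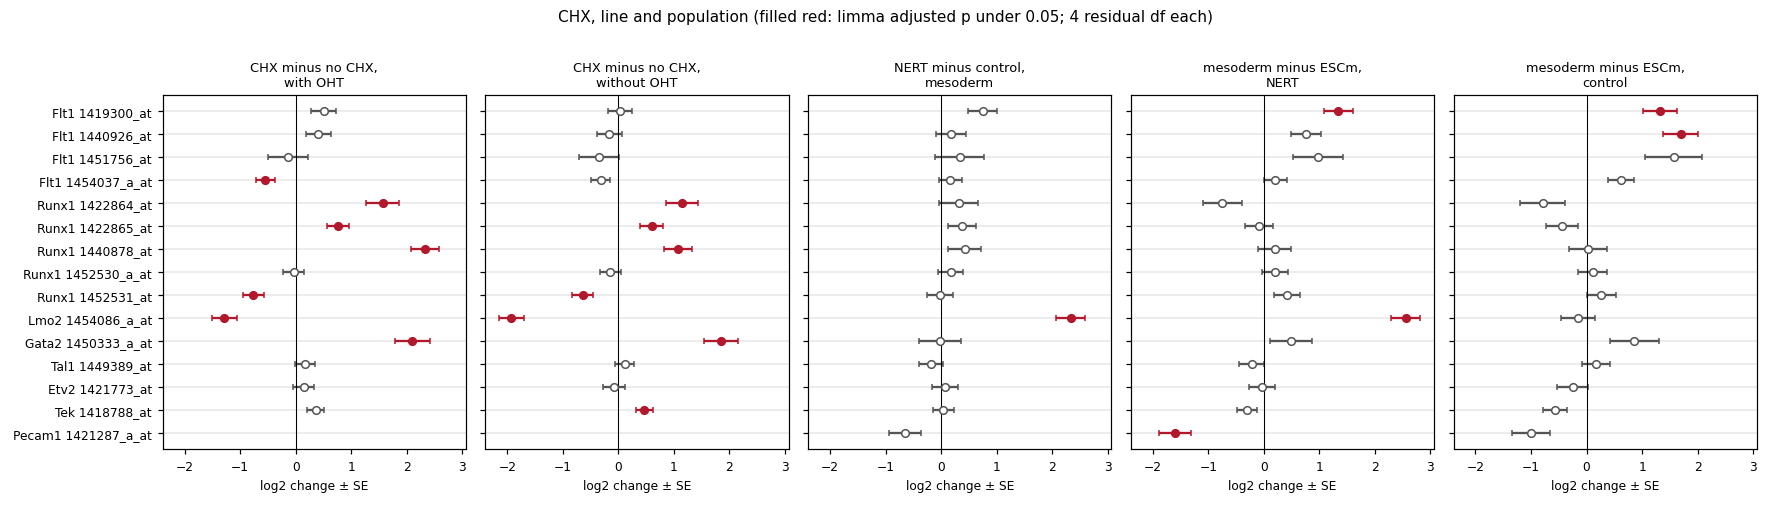
Log2 difference ± SE for CHX with OHT, CHX without OHT, NERT minus control mesodermal cells, and mesodermal cells minus ESCm in each line, with filled red points where the limma adjusted p was under 0.05. Gata2 and 3 Runx1 probe sets lie right of 0 and Lmo2 left of 0 in both CHX panels, and Lmo2 lies at 2.34 between the lines.

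Other genes of the same programmes were counted in 4 lists, each gene read from 1 probe set, and the counts are of limma calls. Of 15 blood factors tested in NERT mesodermal cells, none rose and 1 fell with OHT, and with CHX 1 rose and none fell. Of 11 endothelial and ETS factors 1 rose without and 2 with CHX. Of 11 genes of the VEGF and angiopoietin system none was called in either, and of 7 endothelial surface genes 1 rose in each. In ESC 1 of 11 endothelial and ETS factors and 1 of 11 VEGF genes rose, and in control cells no gene of the lists was called. With CHX itself, in the absence of OHT, 4 blood factors were higher and 2 lower, 4 endothelial and ETS factors higher and 1 lower, no VEGF gene higher and 2 lower, and 1 surface gene higher and 1 lower. Over all tested probe sets limma called 32.8% for CHX without OHT, beside 6 of 15 and 5 of 11 in the first 2 lists, and 0.893%, 0.617% and 0.538% for OHT in NERT mesodermal cells, in the same cells under CHX and in NERT ESC. List medians without CHX were 0.04, -0.24, -0.03 and 0.06 on the log2 scale in the order above, against -0.04 over all tested probe sets.

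Hey2, a repressor that Notch signalling induces in arterial endothelium, had 662 and 1025 with OHT and 222 and 308 without in NERT mesodermal cells (log2 change 1.57 ± 0.24, adjusted p = 0.0132), and 967 and 1208 with CHX and OHT and 122 and 152 with CHX alone (log2 change 2.78 ± 0.24, adjusted p = 3.32e-04). Mcam, an adhesion molecule, had 121 and 139 with OHT and 47.9 and 55.9 without (log2 change 1.01 ± 0.17, adjusted p = 0.0185), and 202 and 239.8 with CHX and OHT and 97.8 and 105 with CHX alone (log2 change 0.96 ± 0.17, adjusted p = 0.0315). Under CHX 2 further genes rose beside these. Cbfa2t3, a corepressor of the Tal1 complex, had 312 and 258 with CHX and OHT and 37.0 and 51.1 with CHX alone (log2 change 2.17 ± 0.17, adjusted p = 1.49e-04), and the forkhead factor Foxc2 had 209.6 and 145 and 39.1 and 25.8 in the same order (log2 change 1.81 ± 0.21, adjusted p = 0.00215). Runx1t1, another corepressor of that family, fell with OHT to 13.1 and 9.72, against 60.7 and 42.0 without (log2 change -1.06 ± 0.18, adjusted p = 0.0242), read by a probe set that the array marks as open to related sequences. Vegfa, a ligand of Flt1, rose with OHT in ESC, where it had 154 with OHT and 66.5 without in ESCm, and 167 with OHT and 86.0 without in ESCe (log2 change 0.88 ± 0.16, adjusted p = 0.0346). In NERT mesodermal cells Vegfa had 613 and 524 with OHT and 382 and 305 without, which was not called (log2 change 0.69 ± 0.20, adjusted p = 0.194). Under CHX it had 583 and 691 with OHT and 337 and 269 without, which was not called either. In ESC Hey2 had 262 with OHT and 49.7 without in ESCm, and 271 with OHT and 52.7 without in ESCe (log2 change 1.94 ± 0.21, adjusted p = 6.64e-04). It also differed before OHT, with 222 and 308 in NERT mesodermal cells and 49.3 in control mesodermal cells (log2 difference 1.95 ± 0.30, adjusted p = 0.0117).

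Over the 16 arrays the genes whose course was most like Runx1 1440878_at were Cxcl1 (Pearson r = 0.966), Rflna (0.964) and Eif2b2 (0.961), and those most like Flt1 1440926_at were Tec (0.928), Adamts1 (0.923) and Plekhg2 (0.921). The r were taken on log2(value + 25) among tested probe sets of other genes, as descriptions of 16 arrays with a shared normalization.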

How the data were processed

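Affymetrix mouse genome arrays of EB5 NERT and EB5 control cells were used (16 arrays, 12 conditions). The authors computed model-based expression intensity values with dChip and normalized them to the control mesoderm array with OHT by the invariant set method, and the deposited table holds these intensities on a linear scale. Present calls were not used. Gene symbols came from the platform annotation, which gave 1 symbol to 34945 probe sets, several to 932 and none to 9160. The members and the gene lists were chosen with earlier results of these data known.

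Values were tested as log2(value + 25) with limma 3.58.1 in R 4.3.3 (lmFit, eBayes with trend), where at least 1 condition averaged 50 or more, and p-values were adjusted by Benjamini-Hochberg over all 23971 probe sets tested on the 8 NERT mesoderm arrays or 25847 on all 16. NERT mesoderm comparisons had 4 residual degrees of freedom. Comparisons with ESC or control cells had 6 where OHT responses were pooled over media or control populations and 4 otherwise, and conditions with 1 array took their spread from the replicated ones. The number of arrays limits the precision. The scripts were tested on simulated data. By rule every member probe set was named, and list genes where limma called them in an OHT comparison of NERT cells. Alternatives were pseudocounts of 5 and 100, no filter, quantile normalization, no trend, all 16 arrays, the replicate number as a block and each replicated array left out. Replicate numbers were not taken to pair arrays. Promoter windows (RefSeq, GRCm38.p6) were searched with Python 3.11.15, pandas 2.3.3 and numpy 2.4.6, and plots were drawn with matplotlib 3.10.9.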

Additional observations from a re-analysis of the deposited data

How the results depend on the processing

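The count of called members moved by more than 1.5 times in these settings. For OHT in NERT mesodermal cells it was 0, against 1 after quantile normalization and 0 to 2 with 1 array left out. For OHT under CHX it was 2, against 0 to 2 with 1 array left out. For CHX without OHT it was 7, against 2 to 7 with 1 array left out. For OHT in ESC it was 0, against 0 to 1, and for the difference between NERT mesodermal and control cells in the OHT response 0, against 0 to 1, with 1 array left out. For mesodermal cells against ESCm it was 3 in the NERT line, against 3 to 5 with 1 array left out, and 2 in the control line, against 0 with a pseudocount of 100 and 1 without the filter. For the line difference of that change it was 0, against 1 with a pseudocount of 100 and 1 after quantile normalization. By size, in either direction and on ratios of means without the floor of 25, 2 members in NERT mesodermal cells became 4 at 1.5-fold (3 higher, 1 lower) and 5 without a minimum difference (4 higher, 1 lower), 1 in ESCe became 3 at 1.5-fold, 1 in ESCm became 3 at 1.5-fold and 4 without a minimum difference, and the count of 0 in each control population became 2 without a minimum difference. With means under 25 raised to 25, an alternative chosen after seeing the data, the counts without a minimum difference were 3 in NERT mesodermal cells, 1 in ESCm and 0 in each control population. The share of all probe sets that met these looser size settings was not counted, so these counts cannot be set against a background. The log2 change of Flt1 1451756_at with CHX in the presence of OHT was -0.14, against 0.53 without replicate 1 of CHX and OHT and -0.81 without replicate 2.

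With the replicate number as a block, the counts of called members were 0, 2, 0, 7 and 7 for OHT, OHT under CHX, their difference, CHX without OHT and CHX with OHT, as without it, and over all probe sets the first 3 were 339, 191 and 19, against 214, 148 and 6. Replicate deviations correlated at 0.51 between OHT alone and neither agent, the conditions of the OHT comparison without CHX. Between the other pairs of conditions they correlated at 0.01 to 0.21. With the block, Flt1 1440926_at had a limma adjusted p of 0.0577 for OHT without CHX, against 0.0886 without the block. The main fits did not pair arrays by replicate number. With 1 array left out, calls over all probe sets ran from 63 to 287 for OHT in NERT mesodermal cells, 82 to 611 under CHX, 3 to 48 for their difference, 3890 to 9363 for CHX without OHT, 3 to 19 (6 to 24 under the other settings) for mesodermal cells against ESC in the OHT response, 51 to 174 for NERT mesodermal against control cells in it, 91 to 496 for the lines and 0 to 14 (1 to 19 under the other settings) for the line difference, where 15 were called with all arrays. Quantile normalization moved the median of all tested probe sets from 0.10 to -0.04 for CHX with OHT and from 0.07 to -0.04 for mesodermal cells against ESCm in the NERT line. Of the other results for single probe sets, 426 kept direction and side of the threshold, 23 gained and 35 lost a call.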
